A study of Mus musculus with 4 samples.

Results

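These are cortical somatostatin (SST) interneurons that hold transcripts of skeletal-type myosin heavy chains, or in a few cells of Chrna2 alone, together with Nr2f2. A cell was a member if its barcode had at least 2000 UMIs (unique molecular identifiers, here counts of transcripts), under 25% of them from mitochondrial genes, at least 3 of Sst, at least 2 of Myh4, Myh8, Myh13 and Chrna2 summed, fewer than 2 of Cartpt and at least 1 of Nr2f2. The rule found 134 members among 2611 barcodes, of which 2299 passed the limits on UMIs and mitochondrial share and 2051 were Sst cells. They were set against 81 cells that met the same rule with Nr2f2 at 0 (Nr2f2-0 myosin-gene cells below) and against all other Sst cells, 1836 in all and 1650 in the libraries that hold members. Myh4, Myh8, Myh13, Chrna2, Nr2f2, Sst and Cartpt chose the cells, so their values are descriptions without a test. The cells were thus chosen by their measured counts of these genes.

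All mice carried 3 alleles on an outbred CD1 (ICR) background: SST-Cre, which drives Cre from the Sst gene, the Cre-dependent reporter LSL-tdTomato (Ai9), and X94-GFP, a Gad1-EGFP transgene that labels a subset of SST cells. Their somatosensory cortex was dissociated and labelled cells were sorted. There were 4 droplet libraries: tdTomato+ cells at P97 (postnatal day 97), tdTomato+ cells at P45 (replicates 1 and 2), and GFP+/tdTomato+ cells at P97. Both P97 libraries came from the same 6 pooled mice, and the number of mice behind each P45 library was not given in the sources used here. Cre recombination is permanent, so the sort collects any cell that expressed Sst, and a library rather than a cell is the replicate. The tdTomato+ libraries held 741, 866 and 772 barcodes (P97, P45 replicates 1 and 2) and the GFP+/tdTomato+ library 232, with 3410049 to 5693022 UMIs a library.

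Nr2f2 (COUP-TFII) is an orphan nuclear receptor and transcription factor that marks interneuron precursors of the caudal ganglionic eminence and a share of those from the medial ganglionic eminence, where SST cells arise. Myh4, Myh8 and Myh13 encode myosin heavy chains of fast, perinatal and extraocular muscle fibres and lie side by side in the genome, and Chrna2 encodes the alpha2 subunit of nicotinic acetylcholine receptors, a known marker of deep-layer Martinotti cells. Martinotti cells are SST interneurons whose axons climb to the cortical surface, and inhibit the distal dendrites of pyramidal cells.

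The promoters of the 3 myosin genes and of Nr2f2 are shown because these genes define the cells. Each window runs from 250 bases before to 50 bases after the RefSeq start site (GRCm38.p6, sequences from RefSeq), and capitals mark TATAAA or its reverse complement TTTATA. Such a match occurs in 13.6% of the 32851 windows of that table. RefSeq start sites need not match the GENCODE gene bounds given below. A match was found 3 times in the Myh4 window, the nearest at position -31 from the start site, and 1 time in that of Myh8, and not in those of Myh13 and Nr2f2.
Myh4, chr11:67237562-67237861, plus strand: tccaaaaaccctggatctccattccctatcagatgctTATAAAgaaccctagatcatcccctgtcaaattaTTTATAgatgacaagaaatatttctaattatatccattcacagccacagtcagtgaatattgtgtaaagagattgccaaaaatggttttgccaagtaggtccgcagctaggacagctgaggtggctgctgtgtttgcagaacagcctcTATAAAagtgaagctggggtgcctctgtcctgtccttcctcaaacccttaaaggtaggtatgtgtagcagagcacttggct
Myh8, chr11:67276874-67277173, plus strand: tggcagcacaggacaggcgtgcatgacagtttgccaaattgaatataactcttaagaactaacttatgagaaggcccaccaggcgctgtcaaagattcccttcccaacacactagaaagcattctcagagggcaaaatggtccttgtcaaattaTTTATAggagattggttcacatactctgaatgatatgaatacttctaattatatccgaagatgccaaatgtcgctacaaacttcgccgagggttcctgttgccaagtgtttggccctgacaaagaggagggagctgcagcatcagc
Myh13, chr11:67326853-67327152, plus strand: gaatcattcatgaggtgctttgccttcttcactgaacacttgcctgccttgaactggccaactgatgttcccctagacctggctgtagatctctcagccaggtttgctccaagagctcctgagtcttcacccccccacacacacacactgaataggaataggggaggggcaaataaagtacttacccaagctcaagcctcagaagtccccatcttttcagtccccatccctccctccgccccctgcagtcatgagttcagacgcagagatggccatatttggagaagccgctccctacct
Nr2f2, chr7:70366697-70366996, minus strand: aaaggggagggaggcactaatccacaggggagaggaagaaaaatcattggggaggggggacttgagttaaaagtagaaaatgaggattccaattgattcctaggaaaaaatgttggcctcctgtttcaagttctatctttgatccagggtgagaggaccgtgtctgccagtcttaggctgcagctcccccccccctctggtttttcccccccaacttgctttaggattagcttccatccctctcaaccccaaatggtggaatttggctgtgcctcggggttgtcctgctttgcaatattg

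The members were 9.58% of Sst cells in the P97 tdTomato+ library (53 of 553, exact 95% interval 7.26 to 12.3%), 4.05% in P45 replicate 1 (27 of 667, 2.68 to 5.84%) and 8.37% in P45 replicate 2 (54 of 645, 6.35 to 10.8%). The mean was 7.33% ± 2.91 (SD, n = 3 libraries). The intervals of the P45 libraries did not overlap under this rule. They did overlap after thinning to 3000 UMIs, in cells of at least 5000 UMIs, at a 4-gene sum of at least 1 or 3 and at 2 or more Nr2f2 UMIs. In the GFP+/tdTomato+ library no member was found among 186 Sst cells, which allows a share of up to 1.61% by the limit of 3 counts and 1.96% by the exact interval, and 2 of those cells had an Nr2f2 UMI. This library had no myosin-gene cell at all, and with 1 library of that sort there is no test between sorts. Intervals here and below are exact binomial (Clopper-Pearson) and cover counting error only.

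**Figure D1:**
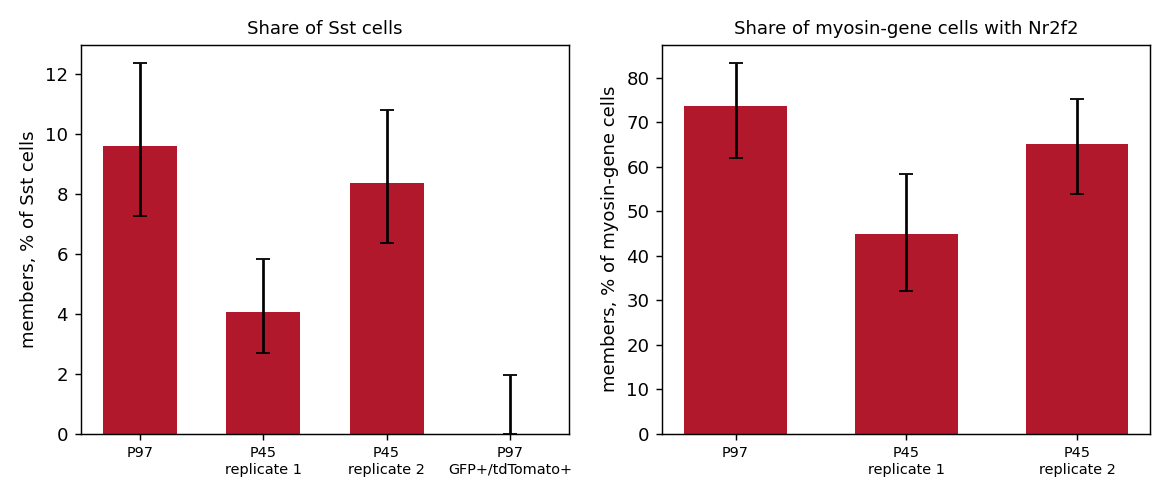
Share of cells meeting the rule in each library, as a percent of Sst cells (left) and of the cells that pass the sum of Myh4, Myh8, Myh13 and Chrna2 (right), with exact 95% binomial intervals as whiskers. P45 replicate 1 has the lowest share of the tdTomato+ libraries in both panels (4.05% and 45%), and the GFP+/tdTomato+ library has no member among 186 Sst cells.

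Of the cells that passed the 4-gene sum and the Cartpt limit, 73.6% had an Nr2f2 UMI at P97 (53 of 72, interval 61.9 to 83.3%), 45% in P45 replicate 1 (27 of 60, 32.1 to 58.4%) and 65.1% in P45 replicate 2 (54 of 83, 53.8 to 75.2%), a mean of 61.2% ± 14.7 (SD, n = 3). This share moved with sequencing depth. It was 71.2% among the 125 such cells with 5000 or more UMIs (interval 62.4 to 78.9%) against 45 of the 90 with fewer (39.3 to 60.7%), and over deep cells alone the libraries lay within 65.2 to 73.3%. By library, the shallow cells had Nr2f2 UMIs in 9 of 12 cells at P97, 12 of 37 in P45 replicate 1 and 24 of 41 in P45 replicate 2, so the gap with depth was seen in the P45 libraries and not at P97. When each cell was thinned to 3000 UMIs before the rule was applied, the mean share was 40.1% and the members were 2.78% of Sst cells. Nr2f2-0 therefore means that no UMI was detected at the cell's depth, and the median depth of these cells was below that of members in each library (6441, 4131 and 4672 UMIs, against 6908, 5110 and 5214.5 UMIs in members).

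Nr2f2 UMIs also occur in cells of other types. With every cell thinned to 3000 UMIs, 64.8% of members (81 of 125) kept an Nr2f2 UMI. Members had been chosen for such a UMI at full depth, so their share follows from the rule and does not measure enrichment. The share was 12.7% in other Sst cells (188 of 1479) and 6.82% in cells with excitatory-neuron transcripts (6 of 88, at least 3 Slc17a7 UMIs). Before thinning the share was 19.0% in other Sst cells and 17.6% in the excitatory-type cells, at median depths of 6307 and 7104 UMIs. In members the median depth was 5717.5 UMIs.

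At the thresholds, 60 members had 1 Nr2f2 UMI, 39 had 2 and 35 had 3 or more. For the 4-gene sum, 52 members stood at the minimum of 2 and 82 had 3 or more. Just outside the rule in the tdTomato+ libraries were 79 Nr2f2-positive Sst cells with a sum of 1, and 12 cells were left out only for 2 or more Cartpt UMIs. Most members carried more than 1 of the 4 genes: 66 had transcripts of 2 of them, 25 of 3, 2 of all 4, and 41 of 1 gene. Myh4 with Myh8 was the most frequent pattern (21 cells), followed by Myh4 alone (19 cells). In 4 members Chrna2 was the only 1 of the 4 genes, so these held no UMI of the myosin genes in the rule.

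By library (P97, P45 replicate 1, P45 replicate 2), Nr2f2 stood at 309, 306 and 320 CPM (UMI counts of the summed cells scaled to a common total) in members, at 0 in Nr2f2-0 myosin-gene cells and at 70.8, 41.9 and 40.8 CPM in other Sst cells. Nr2f2 lies at chr7:70351944-70366735 on the minus strand (GRCm38, GENCODE M21). Myh4 (chr11:67238029-67260446) had 145, 196 and 139 CPM in members, against 286, 189 and 251 CPM in Nr2f2-0 myosin-gene cells and 5.25, 6.02 and 6.24 CPM in other Sst cells. Myh13, at chr11:67321658-67371586, had 161, 162 and 188 CPM in members and 229, 347 and 219 CPM in Nr2f2-0 myosin-gene cells. Myh8 (chr11:67277124-67308634), which lies between them, had 112, 144 and 120 CPM in members and 73.5, 170 and 94 CPM in Nr2f2-0 myosin-gene cells. Chrna2 (chr14:66135039-66152948) had 52.0, 52.0 and 100 CPM in members, 57.1, 82.0 and 81.5 CPM in Nr2f2-0 myosin-gene cells and 3.66, 2.47 and 2.60 CPM in other Sst cells. Myh4, Myh8 and Myh13 are close paralogs, so how shared reads were split among them is uncertain, and the rule uses their sum.

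The label was checked against markers of SST cells and of other cell types. The 8 SST-lineage markers (Sst, Gad1, Gad2, Slc32a1, Lhx6, Sox6, Satb1 and Elfn1) were all detected in members, Sst by the rule itself. Against other Sst cells, Sox6, Satb1 and Elfn1 rose, Gad2 fell (log2 fold change -0.54, adjusted p = 0.000908, edgeR) and Gad1, Slc32a1 and Lhx6 did not pass. Il1rapl2 and Gfra2, the markers that the rule does not use, were among the 12 genes of at least 50 CPM with the largest rise over other Sst cells. They were named as markers with earlier results of these data known, so this is no independent check. Neither passed against Nr2f2-0 myosin-gene cells. None of 5 astrocyte and none of 5 microglial markers was detected in members. Neurod6, Neurod2 and Tbr1 were at 0 in members, and Slc17a7 had 1 UMI. The excitatory list as a whole summed to 150 to 205 CPM in members, against 183 to 226 CPM in Nr2f2-0 myosin-gene cells and 164 to 194 CPM in other Sst cells. Nearly all of the sum in members was Camk2a, at 205, 144 and 191 CPM, against 170, 140 and 146 CPM in other Sst cells. Camk2a did not pass against other Sst cells (log2 fold change 0.23, adjusted p = 0.465, edgeR). Of 6 markers of interneurons from the caudal ganglionic eminence, Vip, Sncg, Adarb2 and Htr3a were at 0, and Prox1 (3 UMIs) and Lamp5 (1 UMI) were read in members of P45 replicate 1, where the list summed to 23.1 CPM in members, 0 in Nr2f2-0 myosin-gene cells and 11.5 CPM in other Sst cells. Of markers of other SST classes, Chodl, Tac2, Th and Nts were at 0 in members, and no member had 2 or more UMIs of Nos1, against 9.27% of other Sst cells. GFP transcripts were present at 457, 306 and 317 CPM in members and at 335, 341 and 333 CPM in other Sst cells of the same libraries. The GFP level of members did not pass the test against other Sst cells (log2 fold change 0.10, adjusted p = 0.771, edgeR, and -0.13 without the P97 library).

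A member in P45 replicate 1 carried 1966 UMIs of oligodendrocyte markers among its 22906 UMIs. The doublet caller Scrublet marked no member, this cell included. With it, the 5 oligodendrocyte markers summed to 11380 CPM in members of that library, against 52.0 and 48.5 CPM in members of the other libraries, 12.5 to 69.4 CPM in Nr2f2-0 myosin-gene cells and 432 to 1037 CPM in other Sst cells. The part of oligodendrocyte transcripts in the results beyond these values was not tested. This cell is in every member value of P45 replicate 1 and in every main comparison. Only the counts of genes called and single genes such as Ache and Pdyn are also given without it. The counts by gene list include it. Alternatives without it or without all such cells were chosen after seeing the data. Barcodes shared between libraries numbered at most 2 for any pair, and none was a member.

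The comparison with other Sst cells asks what sets the members apart from the bulk of SST cells, a mixture of classes that also holds 314 Nr2f2-positive cells in these libraries. Members differed in 419 of 6275 genes (6.68%, edgeR quasi-likelihood test blocked on library, Benjamini-Hochberg adjusted p under 0.05, with 16.9% of genes at an unadjusted p under 0.05), 186 of them higher (2.96%) and 233 lower (3.71%). Pld5, Lypd1, Il1rapl2 and Gfra2 were among the genes that rose most, and Olfm3, Nos1, Kcnk2 and Erbb4 among those that fell most. The libraries of the groups did not overlap for 391 of the 419 genes, where 11.2% of all genes tested had members higher and 10.1% members lower without overlap. Without the member rich in oligodendrocyte markers the count was 578, and 414 of the 419 genes were called again. Without the P97 library the count was 241 and without P45 replicate 2 it was 244.

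Among genes with a mean of at least 50 CPM in members, the 12 with the largest rise were Plpp4, Pld5, Il1rapl2, Echdc2, Lypd1, Dock4, Cav2, S1pr3, Cdh12, Tmem132e, Gfra2 and 1810041L15Rik, with log2 fold changes of 1.86 to 2.51. Plpp4, a phospholipid phosphatase gene at chr7:129257031-129391412, had 84.8, 86.6 and 103 CPM in members (P97, P45 replicate 1, P45 replicate 2), against 65.3, 75.7 and 81.5 CPM in Nr2f2-0 myosin-gene cells and 16.7, 18.6 and 12.7 CPM in other Sst cells. Against other Sst cells its log2 fold change was 2.51 (SE 0.25, adjusted p = 2.15e-07). Pld5, of the phospholipase D family, had 115, 104 and 113 CPM in members, 89.8, 151 and 107 CPM in Nr2f2-0 myosin-gene cells and 13.9, 25.2 and 22.6 CPM in other Sst cells (log2 fold change 2.48, SE 0.22, adjusted p = 4.14e-08). In both genes every member library lay above every library of other Sst cells, and for Pld5 members overlapped the Nr2f2-0 cells. Of all genes tested, 11.2% had members higher than other Sst cells without overlap.

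**Figure D2:**
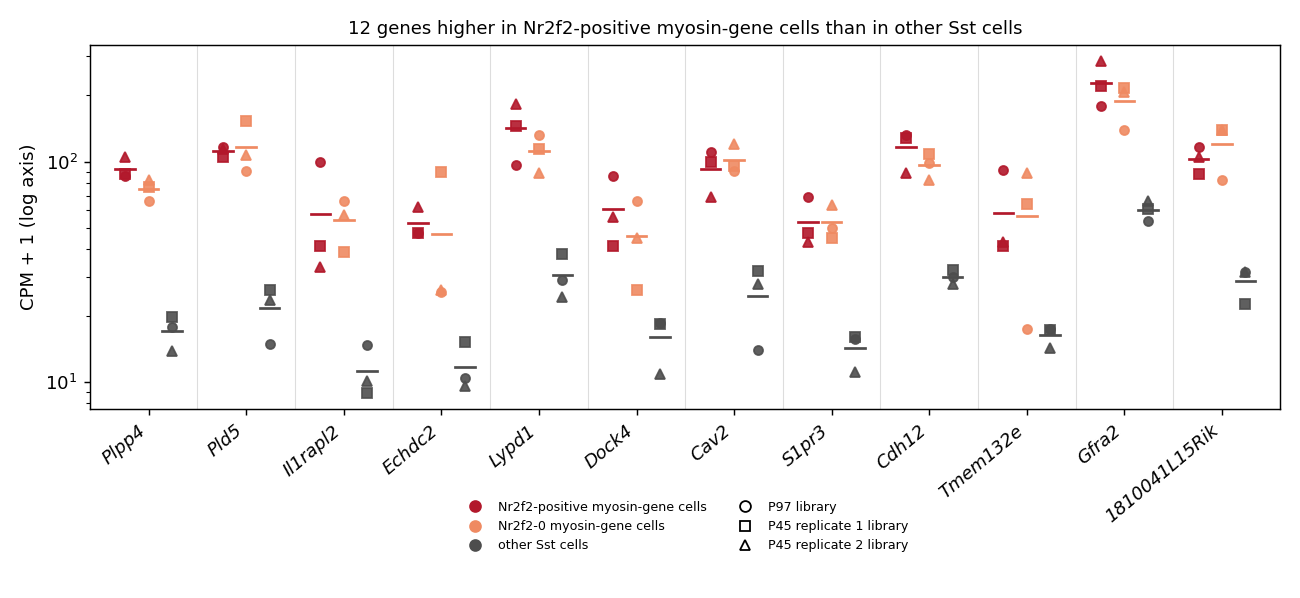
Levels of the 12 genes with the largest rise in members over other Sst cells, where each point is 1 library (shape) of 1 group (colour), on a log axis of CPM + 1, and bars are means over 3 libraries. Only genes with a mean of at least 50 CPM in members were ranked. Nr2f2-positive and Nr2f2-0 myosin-gene cells share the same range in nearly every gene, and both lie above other Sst cells except Tmem132e in the P97 Nr2f2-0 cells (16.3 CPM).

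Il1rapl2, an X-linked gene of the interleukin-1 receptor accessory family whose proteins act at synapses, had 98.5, 40.4 and 32.3 CPM in members, 65.3, 37.9 and 56.4 CPM in Nr2f2-0 myosin-gene cells and 13.7, 7.94 and 9.10 CPM in other Sst cells (log2 fold change over other Sst cells 2.43, SE 0.32, adjusted p = 1.08e-05). Its P97 value was the highest of the 9, and it was read from 36, 7 and 10 UMIs in members. Gfra2, the co-receptor for neurturin, a ligand of the GDNF family, had 178, 219 and 284 CPM in members, 139, 214 and 207 CPM in Nr2f2-0 myosin-gene cells and 52.5, 59.7 and 65.5 CPM in other Sst cells (log2 fold change 1.91, SE 0.17, adjusted p = 4.14e-08). At 3000 UMIs a cell, Gfra2 was detected in 51.2% of members, 43.7% of Nr2f2-0 myosin-gene cells and 16.6% of other Sst cells. Of 4 GDNF-family genes tested it alone passed, where 2.96% of all genes rose and 3.71% fell.

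Further genes with large rises were Cav2, which encodes caveolin 2, Cdh12, a cadherin, and S1pr3, a receptor of sphingosine-1-phosphate. Cdh12 had 131, 127 and 87.3 CPM in members and 29.0, 31.2 and 26.8 CPM in other Sst cells (log2 fold change 1.96, SE 0.19, adjusted p = 8.21e-08). Dock4, an exchange factor of Rac, S1pr3 and Tmem132e lost the call without the P97 library (adjusted p = 0.068, 0.097 and 0.16), and Echdc2 with other Sst cells matched to members on UMIs (adjusted p = 0.075). The P97 values of Dock4 (84.8 CPM) and Tmem132e (90.3 CPM) in members stood above both P45 values.

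Of 8 genes tested on the list of acetylcholine receptors, their modulators and Ache, 3 rose and 1 fell (2.96% and 3.71% over all genes). The list's median log2 fold change was 0.44 (0.02 over all genes). Those that rose were Lypd1, Lypd6 and Lypd6b, membrane-anchored proteins of the Ly6 family that bind nicotinic receptors. Lypd6 had 539, 572 and 553 CPM in members, 653, 593 and 502 CPM in Nr2f2-0 myosin-gene cells and 121, 172 and 181 CPM in other Sst cells (log2 fold change 1.81, SE 0.13, adjusted p = 1.63e-09). Lypd1 rose by 2.24 and Lypd6b by 1.18 on the log2 scale, while Lynx1, of the same family, fell by 0.48 (adjusted p = 0.0145) and was called in 10 of 17 alternatives. Ache, acetylcholinesterase, had a log2 fold change of 0.46 and did not pass (adjusted p = 0.0756), but was called without the oligodendrocyte-marker member (0.0109) and without P45 replicate 1 (0.0375). Chrna2 itself, which the rule used, was not tested.

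Of 12 neuropeptide genes tested, 2 rose, 8 fell and 2 did not pass, where 2.96% of all genes rose and 3.71% fell. The list's median log2 fold change was -1.41. The genes that rose were Chgb, which encodes a granin of secretory granules, by 0.74 and Igf1, insulin-like growth factor 1, by 0.55, and Igf1 lost the call without the P97 library (adjusted p = 0.477) and without P45 replicate 2 (0.284). Npy, the neuropeptide Y gene, had 498, 375 and 424 CPM in members, 416, 738 and 2320 CPM in Nr2f2-0 myosin-gene cells and 3438, 10300 and 4618 CPM in other Sst cells (log2 fold change against other Sst cells -3.68, SE 0.35, adjusted p = 9.03e-08). At 3000 UMIs a cell, Npy was detected in 50 of 125 members, 28 of 71 Nr2f2-0 myosin-gene cells and 75.4% of other Sst cells. Crhbp, which binds corticotropin-releasing hormone, Cort (cortistatin) and Vgf fell by 2.80, 2.41 and 1.27 on the log2 scale. Crhbp was read in few member cells, with 24 of its 36 UMIs in P45 replicate 1 from 1 cell. Cort was not called by DESeq2 (adjusted p = 0.163). Sst itself, used by the rule, had 4681, 9094 and 5389 CPM in members and 4789, 8495 and 5287 CPM in other Sst cells. In P45 replicate 1 members, 907 of the 1575 Sst UMIs came from 1 cell.

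**Figure D3:**
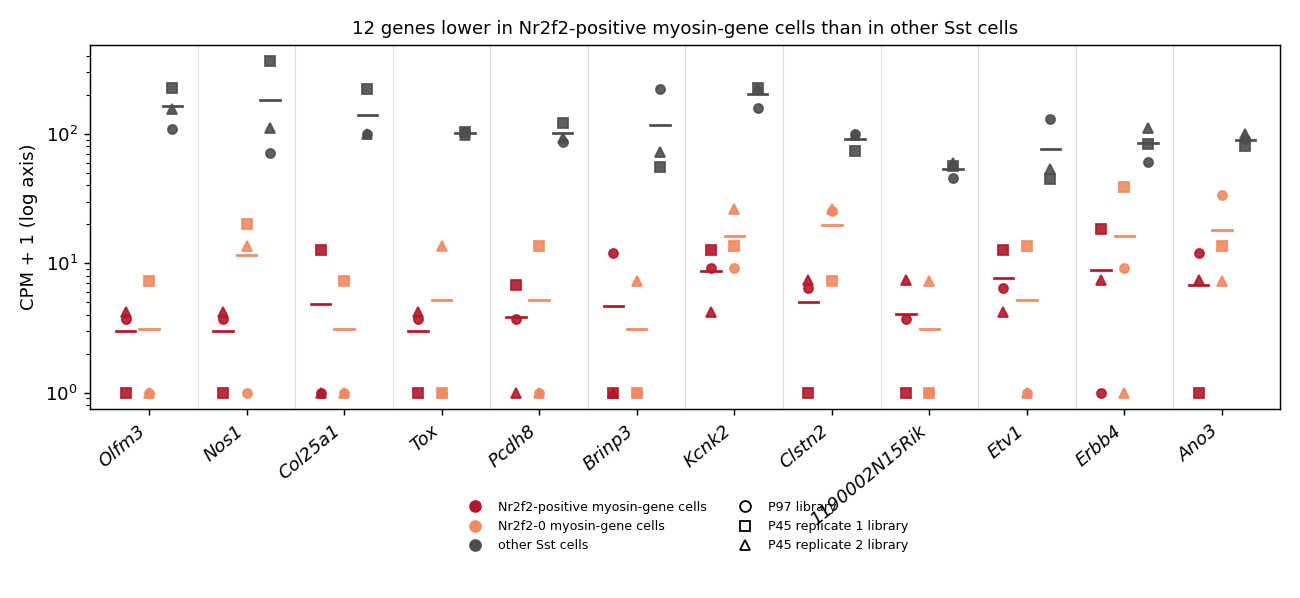
Levels of the 12 genes with the largest fall in members against other Sst cells, where each point is 1 library (shape) of 1 group (colour), on a log axis of CPM + 1, and bars are means over 3 libraries. Only genes with a mean of at least 50 CPM in other Sst cells were ranked. For all 12 genes every library of Nr2f2-positive and of Nr2f2-0 myosin-gene cells lies below every library of other Sst cells, and several points are at 0 CPM (1 on the axis).

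Among genes with a mean of at least 50 CPM in other Sst cells, the 12 with the largest fall were Olfm3, Nos1, Col25a1, Tox, Pcdh8, Brinp3, Kcnk2, Clstn2, 1190002N15Rik, Etv1, Erbb4 and Ano3. Each was read from 6 or fewer UMIs over all members, out of 848077. Hpse, at a mean of 39.8 CPM in other Sst cells, was under that floor and fell too (log2 fold change -5.04, adjusted p = 2.78e-05, edgeR). Olfm3, a secreted olfactomedin, had 2 UMIs in members and 1897 in other Sst cells, a ratio of levels of 0.0148 (exact 95% counting interval 0.00179 to 0.0534). Nos1, neuronal nitric oxide synthase, had 2 and 2058 UMIs (ratio 0.0136, interval 0.00165 to 0.0492). Col25a1, Tox and Pcdh8 also had 2 UMIs each in members, with ratios of 0.0173 (0.00209 to 0.0624), 0.0235 (0.00284 to 0.0849) and 0.0239 (0.00289 to 0.0864), and 1190002N15Rik had 3 (0.0673, 0.0139 to 0.198).

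Kcnk2, a leak potassium channel, had 8.21, 11.6 and 3.23 CPM in members, 8.16, 12.6 and 25.1 CPM in Nr2f2-0 myosin-gene cells and 158, 226 and 220 CPM in other Sst cells (log2 fold change -4.78, SE 0.32, adjusted p = 7.72e-10). Erbb4, the neuregulin receptor, had 0, 17.3 and 6.46 CPM in members and 60.1, 83.0 and 111 CPM in other Sst cells (log2 fold change -3.80, SE 0.50, adjusted p = 9.64e-06). Members and other Sst cells did not overlap for either gene, where 10.1% of all genes tested had members lower without overlap. For Kcnk2 members overlapped the Nr2f2-0 cells.

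Among 27 interneuron transcription factors tested, 5 rose and 7 fell (2.96% and 3.71% over all genes). Mef2c, an activity-regulated MADS-box factor, had 200, 144 and 204 CPM in members, 114, 170 and 207 CPM in Nr2f2-0 myosin-gene cells and 1029, 892 and 928 CPM in other Sst cells (log2 fold change -2.38, SE 0.14, adjusted p = 4.94e-11). Maf, which acts in the SST lineage, fell by 1.60, and the ETS factor Etv1 by 3.81 on the log2 scale. Sox6, needed for the maturation of interneurons of the medial ganglionic eminence, rose by 0.97 (353, 300 and 310 CPM in members, 157, 188 and 149 CPM in other Sst cells). In Nr2f2-0 myosin-gene cells Sox6 had 384, 347 and 370 CPM, so its rise was not particular to members.

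Of 10 nuclear receptors tested besides Nr2f2, 2 rose and none fell at adjusted p under 0.05 (2.96% and 3.71% over all genes). Nr2f1 (COUP-TFI), the paralog of Nr2f2, had 107, 121 and 107 CPM in members, 57.1, 88.3 and 81.5 CPM in Nr2f2-0 myosin-gene cells and 58.0, 80.8 and 70.7 CPM in other Sst cells (log2 fold change over other Sst cells 0.68, SE 0.18, adjusted p = 0.0215). Every member library was above every library of both other groups. Over all genes, members were higher without overlap in 5.05% against Nr2f2-0 cells and in 11.2% against other Sst cells. Against Nr2f2-0 cells Nr2f1 did not pass (adjusted p = 0.842, edgeR). The thyroid hormone receptor Thrb rose by 0.60 over other Sst cells (adjusted p = 0.0188). DESeq2 did not call Nr2f1 (adjusted p = 0.0664). Both calls were lost without the P97 library (adjusted p = 0.268 for Nr2f1, 0.298 for Thrb) and without P45 replicate 2 (0.085 and 0.167).

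Ion channels and receptors changed in both directions, where 2.96% of all genes tested rose and 3.71% fell. Of 33 potassium and HCN channels tested, 4 rose and 9 fell. Kcnmb4, a subunit of calcium-activated potassium channels, rose by 1.42 and Kcnb2 by 1.16, while Kcnc2, a channel of fast repolarization, fell by 0.83 on the log2 scale. Of 24 sodium and calcium channel genes, 3 rose and 6 fell. Cacna1g, a T-type calcium channel, had 87.5, 80.8 and 93.8 CPM in members, 57.1, 139 and 87.8 CPM in Nr2f2-0 myosin-gene cells and 35.6, 44.9 and 37.2 CPM in other Sst cells (log2 fold change 1.19, SE 0.21, adjusted p = 0.000379). Fgf13 rose by 1.22, and Scn1a and Cacnb4 fell by 1.23 and 0.64. Cacnb4 lost the call without P45 replicate 2 (adjusted p = 0.06), and Cacnb4 and Cacna1g with other Sst cells matched on UMIs.

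Of 16 glutamate receptor genes 1 rose and 5 fell (2.96% and 3.71% over all genes). The AMPA receptor genes Gria1 and Gria3 fell by 1.19 and 0.74, the NMDA receptor gene Grin2a by 1.03 and the kainate receptor gene Grik2 by 1.43. Grik2 lost the call without P45 replicate 2 (adjusted p = 0.075). Of 10 GABA receptor genes 3 fell, among them Gabra2 by 2.21. Of 8 neuromodulator receptor genes 3 rose and 2 fell. Cnr1, the cannabinoid receptor, had 394, 439 and 553 CPM in members, 571, 612 and 646 CPM in Nr2f2-0 myosin-gene cells and 122, 217 and 203 CPM in other Sst cells (log2 fold change over other Sst cells 1.38, SE 0.13, adjusted p = 4.72e-08). Sstr1, a somatostatin receptor, rose by 1.65 with S1pr3, and the serotonin receptor Htr1a and the oxytocin receptor Oxtr fell by 1.86 and 1.44.

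Adhesion, matrix and further lists follow, to be read beside the 2.96% of all genes that rose and 3.71% that fell. Of 18 cadherins and protocadherins 1 rose (Cdh12) and 7 fell, including Pcdh9, Cdh7 and Pcdh18 (log2 fold changes -3.01, -2.17 and -1.73). The list's median log2 fold change was -0.40. Of 26 genes of the IL1RAPL family and synaptic organisers 2 rose, Il1rapl2 and Elfn1 (0.45, lost without P97 at adjusted p = 0.177 and without P45 replicate 2 at 0.154), and 6 fell, among them Cbln4, Ptprt and Nlgn1 (log2 fold changes -3.22, -3.07 and -3.34). Il1rapl1, the closest relative of Il1rapl2, was one of those that fell (log2 fold change -1.40, adjusted p = 0.117 without P45 replicate 2). In P45 replicate 2 members, 19 of the 21 Ptprt UMIs came from 1 cell, and DESeq2 did not call Ptprt (adjusted p = 0.0621). Of 20 extracellular matrix and secreted protein genes 5 rose and 10 fell, with Gpx3 and Nrep up by 1.64 and 1.19 and Sparcl1 down by 1.96. Of 23 axon guidance genes 3 rose and 4 fell, with Epha4 down by 2.71. Of 7 sarcomere and other myosin genes tested none rose, and Mef2c, which is on this list too, fell. The rest of that list of 31 were under the filter on low counts. Of 6 immediate early genes tested, Dusp1 fell by 1.04 (adjusted p = 0.0403), a call lost when any of the 3 libraries was left out.

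**Figure D4:**
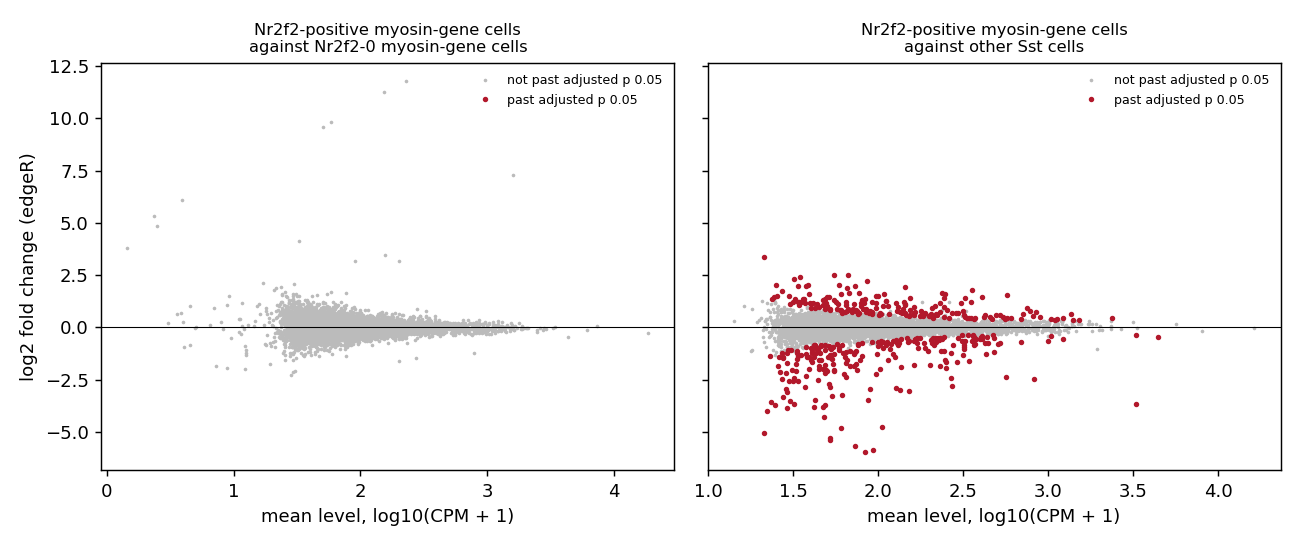
Mean level (x axis) and log2 fold change from edgeR (y axis) of all 6275 genes tested, for members against Nr2f2-0 myosin-gene cells (left) and against other Sst cells (right), with 1 point a gene and genes at adjusted p under 0.05 coloured. On the left no gene passed, and the points highest above 0 include the oligodendrocyte genes Mobp and Cldn11 carried by 1 member, while on the right 419 genes passed.

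The comparison with Nr2f2-0 myosin-gene cells asks what goes with detected Nr2f2 inside the myosin-gene class. At adjusted p under 0.05 it gave 0 of 6275 genes (0.0%, edgeR quasi-likelihood test), with 368 genes (5.86%) at unadjusted p under 0.05. DESeq2 gave 2 (221 at unadjusted p under 0.05), Pdyn and Cldn11, of which Cldn11 is an oligodendrocyte gene carried by 1 member. In simulated data of these group sizes, 57% of genes changed 2-fold and 93% of those changed 4-fold were recovered. Changes were planted only in genes above a minimum expected count. The simulated sums had no library effect and no outlying cells, so these shares need not hold for all 6275 genes. All 24 genes with the largest changes against other Sst cells missed the threshold here.

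Without the member rich in oligodendrocyte markers, 3 genes passed, Pdyn and Lgals1, lower in members, and Gpx3, higher, and Npy passed too (adjusted p = 0.0419) when all cells with such markers were left out, 8, 4 and 4 of them among other Sst cells. Pdyn, which encodes prodynorphin, had 230, 52.0 and 132 CPM in members, 653, 316 and 270 CPM in Nr2f2-0 myosin-gene cells and 443, 380 and 503 CPM in other Sst cells. Every member library lay below every library of the other groups. Of all genes, 3.76% had members lower than Nr2f2-0 cells without overlap, and 10.1% lower than other Sst cells. For Pdyn the fit gave the following. Its log2 fold change against Nr2f2-0 cells was -1.46 (SE 0.26, adjusted p = 0.0805), and the same fit gave -1.64 against other Sst cells (adjusted p = 7.52e-06). It passed in 11 of 17 alternatives, over which its adjusted p ran between 3.39e-12 and 0.9998, with 0.00068 without the oligodendrocyte-marker member, 0.0186 without P97, 0.0068 without P45 replicate 1 and 0.0052 without P45 replicate 2. At 3000 UMIs a cell, Pdyn was detected in 18.4% of members (23 of 125), 43.7% of Nr2f2-0 myosin-gene cells (31 of 71) and 36.2% of other Sst cells.

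Gpx3, a secreted glutathione peroxidase, had 328, 375 and 362 CPM in members, 147, 278 and 182 CPM in Nr2f2-0 myosin-gene cells and 91.6, 164 and 98.3 CPM in other Sst cells. Its log2 fold change over Nr2f2-0 cells was 0.86 (SE 0.19, adjusted p = 0.263), without overlap between the libraries (5.05% of all genes had members higher without overlap), and it passed in 5 of 17 alternatives. It was detected in 57.6% of members and 40.8% of Nr2f2-0 myosin-gene cells at 3000 UMIs. Npy and Lgals1 differed from Pdyn in resting on 1 library. In the Nr2f2-0 cells of P45 replicate 2, 1 cell of 16400 UMIs held 289 of the 370 Npy UMIs and 77 of the 93 Lgals1 UMIs. Without that cell Npy there was 566 CPM, in place of 2320 CPM, and Lgals1 112 CPM, in place of 583 CPM. Leaving out P45 replicate 2 gave a log2 fold change of -0.24 for Npy (adjusted p = 0.940) and -0.47 for Lgals1 (0.820). The marker genes Il1rapl2 and Gfra2 did not pass against Nr2f2-0 cells (log2 fold changes 0.06 and 0.27, adjusted p = 0.9999 and 0.922), nor did Nr2f1 (0.56, adjusted p = 0.842).

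Within and around the thresholds the genes fell into different patterns. Pld5 averaged 122, 98.7 and 116 CPM in members with 3 or more, 2 and 1 Nr2f2 UMIs, 116 CPM in Nr2f2-0 myosin-gene cells, 73.8 CPM in Nr2f2-positive cells with a 4-gene sum of 1, 20.2 CPM in the 209 Nr2f2-positive cells with a sum of 0 and 14.1 CPM in the 1244 cells with neither. By these means, Pld5 was high wherever the 4-gene sum was at least 2, with or without Nr2f2 UMIs. Cnr1 averaged 376, 560 and 488 CPM across the same 3 groups of members, 610 CPM in Nr2f2-0 myosin-gene cells, 444 CPM in Nr2f2-positive cells with a sum of 1, 308 CPM with a sum of 0 and 136 CPM in cells with neither. Pdyn averaged 43.5, 96.3 and 223 CPM across members by falling Nr2f2 UMIs, and 413 CPM in Nr2f2-0 myosin-gene cells. The SD over libraries was 61.7, 51.9 and 178 CPM in the 3 groups of members, and P97 members with 1 Nr2f2 UMI alone stood at 417 CPM. In Nr2f2-positive cells with a sum of 0 Pdyn was 75.1 ± 15.5 CPM, against 522 ± 85.4 CPM in cells with neither (SD, n = 3 libraries each). Npy stood at 3208 CPM in Nr2f2-positive cells with a sum of 1 and 4243 CPM with a sum of 0. These values were chosen for display after they were seen and were not tested.

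**Figure D5:**
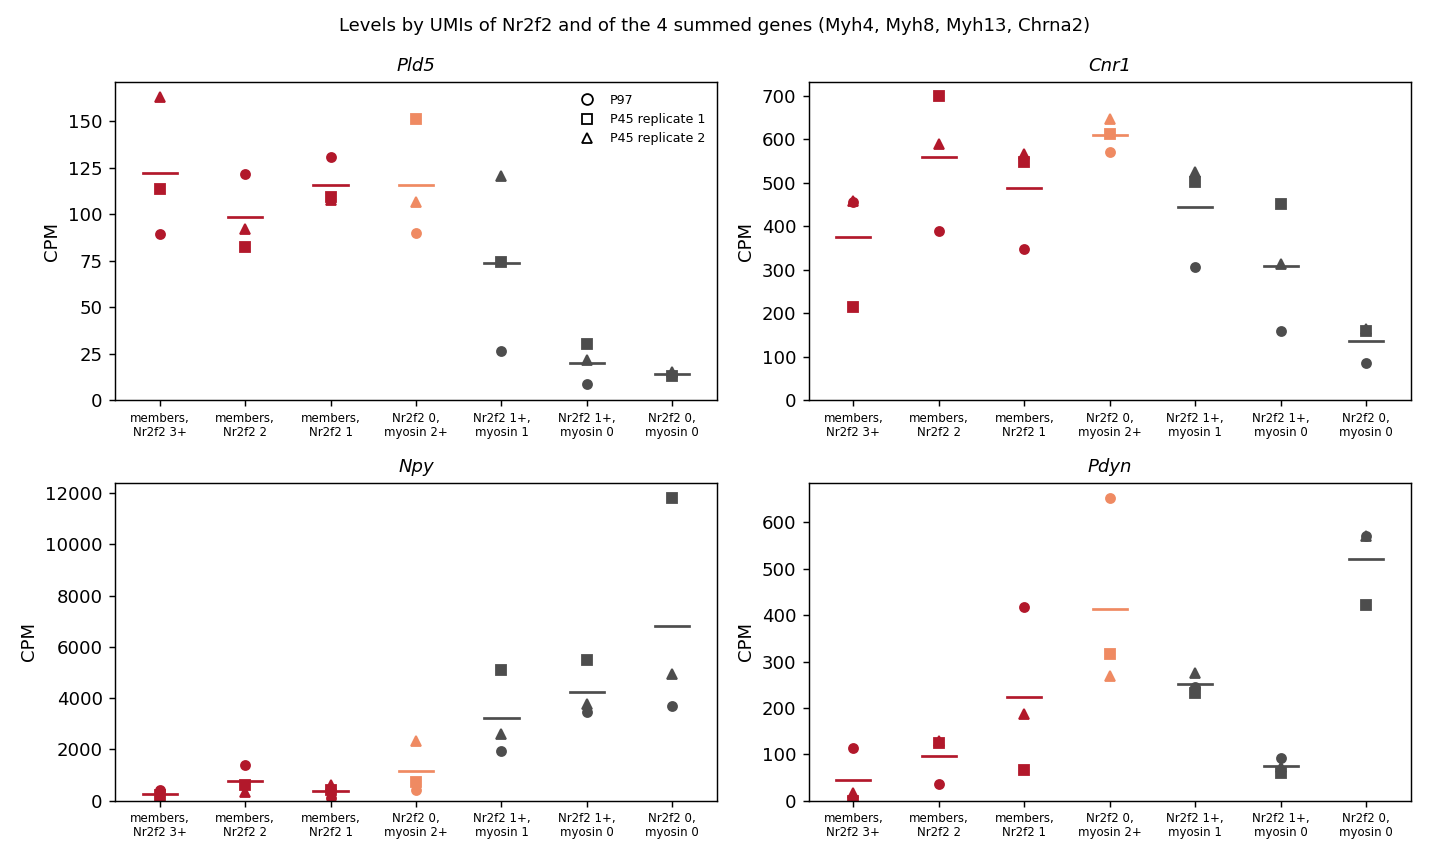
Levels of Pld5, Cnr1, Npy and Pdyn in groups of Sst cells set by UMIs of Nr2f2 and by the sum of Myh4, Myh8, Myh13 and Chrna2, where each point is 1 library (shape), bars are means over 3 libraries, and the y axis is CPM. Pld5 is above 80 CPM in every library of every member group and at most 30.4 CPM where the 4-gene sum is 0, while mean Pdyn is lowest, at 43.5 CPM, in members with 3 or more Nr2f2 UMIs.

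In the 300-base promoter windows, the letters AGGTCA or TGACCT, a core motif read by many nuclear receptors, were in none of the 10 genes with a window among the 12 that rose most and in none of the 10 among the 12 that fell most. Of all windows 16.3% hold them. This says only that these letters are not in these windows.

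Between P97 (1 library) and P45 (2 libraries), members differed in 25 of 7726 genes (0.324%, edgeR, adjusted p under 0.05, with 9.93% at an unadjusted p under 0.05), 23 higher at P97 (0.298%) and 2 lower (0.0259%). Age, batch of mice and library cannot be told apart, and the test assumes that the lone P97 library varies like the P45 libraries, whose spread was the estimate used. The count was between 13 and 123 over the settings tried. Vps8, an endosomal tethering gene, had 4123 CPM in members at P97, against 11.6 and 22.6 CPM at P45, and 2932 CPM at P97, against 19.7 and 22.9 CPM at P45, in other Sst cells. Gad2, which encodes a GABA-synthesizing enzyme, had 1573 CPM in members at P97, against 728 and 689 CPM at P45 (log2 fold change 1.13, SE 0.16, adjusted p = 0.00944). Bsn, which encodes a scaffold protein of the presynaptic active zone, rose by 1.45, and the predicted genes Gm3550 and Gm8797 were the ones that fell. In the GFP+/tdTomato+ library, from the same P97 mice, other Sst cells had 815 CPM of Vps8, against 2932 CPM in the P97 tdTomato+ library. In the same order Gad2 had 2483 and 2295 CPM, Gm3550 7.21 and 3.43 CPM, and Gm8797 180 and 132 CPM. With 1 library of each sort these differences were not tested. These genes were named after their values were seen. All 25 genes had P97 on the same side of both P45 libraries in Nr2f2-0 myosin-gene cells and in other Sst cells too, and whether the size of the difference varied between the groups was not tested. None of the 16 gene lists had a member called here.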

How the data were processed

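The members, gene lists and comparisons were chosen with earlier results of these data known. The authors made 4 Chromium 3' libraries and, per the submitters' processing notes, ran Cell Ranger 2.0.0 on GRCm38. The deposited matrices hold raw UMI counts of called cells, without normalization. No source used here names the annotation release. Totals were 3410049 to 5693022 UMIs a library.

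The rule was applied in Python 3.11.15 with scanpy 1.11.5, whose Scrublet gave doublet calls. Counts were summed per library and group over the 3 tdTomato+ libraries, filtered with filterByExpr, scaled by TMM and tested with edgeR 4.0.16 (glmQLFit, glmQLFTest), with 3 groups and library as a block, since the groups of a library share mice and droplet run. Deviations of sums of the same library correlated at 0.07 to 0.45. The age contrast had no block. The genes of the rule and the 13 mitochondrial genes got no call. CPM is the share of a summed group's UMIs, times 1e6, without TMM. SE is the log2 fold change divided by the root of F. P-values were adjusted over all genes tested. With the library block they rest on how group differences varied from library to library, with 1 spread estimated over the 3 groups. In the age contrast the spread came from the P45 libraries only, whose 3 groups entered as if independent. DESeq2 1.42.0, other scalings, filters, depth limits, matching and leaving out each library were alternatives.

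Named genes were the 12 largest rises and falls with adjusted p under 0.05, mean CPM of at least 50 and 1 direction in all libraries, the marker and rule genes, and from each of 16 lists at most 5 called and 2 not called. Outside this rule, chosen after their values were seen, are GFP, Calb1, the age genes, list members named because few passed in a direction (such as Chgb, Igf1, Elfn1 and Il1rapl1), and Pdyn, Npy, Lgals1, Gpx3 and Nr2f1 against Nr2f2-0 cells. In simulated data 90% of 2-fold changes against other Sst cells were recovered, with 3.57% false calls, and 7.98% false calls against Nr2f2-0 cells. Those data had no library effect and no outlying cells, and only genes above a minimum expected count were changed. Gene positions are from GENCODE M21 (7714 of 7726 genes matched by identifier). Some genes are not reported here.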

Additional observations from a re-analysis of the deposited data

Results flagged for a closer look

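For Npy and Lgals1 the P97 library and both P45 libraries moved in opposite directions between members and Nr2f2-0 myosin-gene cells. The difference between ages was not tested, and each age is also a batch of mice. Npy was higher in members at P97 (498 CPM against 416 CPM in Nr2f2-0 cells) and lower in both P45 libraries (375 and 424 CPM in members, 738 and 2320 CPM in Nr2f2-0 cells), with a fitted log2 fold change of -1.23 over all 3. Lgals1, which encodes galectin-1 and marks another SST class, was 98.5 CPM in P97 members and 57.1 CPM in P97 Nr2f2-0 cells, against 127 and 71.1 CPM in P45 members and 278 and 583 CPM in P45 Nr2f2-0 cells (log2 fold change -1.61). In both genes 1 Nr2f2-0 cell of P45 replicate 2 held most of that library's UMIs.

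GFP transcripts, against other Sst cells, were higher in members at P97 (457 CPM in members, 335 CPM in other Sst cells) and lower in both P45 libraries (306 and 317 CPM in members, 341 and 333 CPM in other Sst cells), with a fitted log2 fold change of 0.10 (0.0951) that did not pass. This difference between ages was not tested either.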

How the results depend on the processing

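Against other Sst cells, the count of 419 genes stayed within 1.5 times under RLE scaling (420), no filter (599), DESeq2 (292), only the compared groups in the fit (483), and without doublets (419), Slc17a7 cells (409), cells of 10% or more mitochondrial UMIs (400) or oligodendrocyte-marker cells (576, or 578 without the 1 such member only, both added after seeing the data). It was 238 with no replicate block, that is without pairing sums by library, 263 in cells of at least 5000 UMIs, 246 with cells thinned to 3000 UMIs, 150 with other Sst cells matched on UMIs in equal number, which leaves far fewer UMIs in the sums, and 231 for members with at least 2 Nr2f2 UMIs. Leaving out 1 library gave 241 to 518. Of 75 genes followed in this comparison, 47 were called in every alternative in which they passed the filter and 74 kept their sign there; low genes were tested in fewer (Il1rapl2 in 12 of 17). The exception was GFP, which did not pass (-0.13 without the P97 library to 0.18 without P45 replicate 1).

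Against Nr2f2-0 cells the count of 0 became 24 with no filter on low counts, 2 with DESeq2, 5 with only those groups in the fit, 4 with matched cells, 3 with thinned cells, 1 for members with at least 2 Nr2f2 UMIs, 4 without oligodendrocyte-marker cells, 3 without the 1 such member only and 1 to 5 without 1 library, and stayed at 0 with no replicate block, RLE scaling and the other filters.

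The 25 age calls became 123 with no filter, 71 with DESeq2, 13 in cells of at least 5000 UMIs and 49 without oligodendrocyte-marker cells (35 without the 1 such member only). Leaving out a library was not run there, because an age with 1 library leaves no spread to estimate.

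The Nr2f2 share of 61.2% of myosin-gene cells became 40.1% after thinning and 34.1% at 2 or more Nr2f2 UMIs, and was 55.0 to 69.3% without 1 library. The share of 7.33% of Sst cells became 2.78% after thinning, 11.6% with a 4-gene sum of 1 or more and 4.04% at 2 or more Nr2f2 UMIs, and was 6.21 to 8.98% without 1 library. Depth limits the rule itself, since 60 of the 134 members rest on 1 Nr2f2 UMI.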

Other observations

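Markers of other SST classes were found at different rates in members. Pdyn had 2 or more UMIs in 16.4% of members, 29.6% of Nr2f2-0 myosin-gene cells and 33.6% of other Sst cells. Calb2 had 2 or more UMIs in 2.24% of members (interval 0.464 to 6.40%), 2.47% of Nr2f2-0 myosin-gene cells and 9.88% of other Sst cells. Nppc, the C-type natriuretic peptide gene, had them in 2.99% of members, 9.88% of Nr2f2-0 myosin-gene cells and 14.5% of other Sst cells, and Hpse in none of 134 members and 6.61% of other Sst cells. Lgals1 reached 2 UMIs in 9.70% of members, 13.6% of Nr2f2-0 myosin-gene cells and 35.8% of other Sst cells. Calb1, the calbindin gene expressed in many Martinotti cells, had 533, 589 and 611 CPM in members and 646, 788 and 684 CPM in other Sst cells (log2 fold change -0.31, adjusted p = 0.278, edgeR). By share of cells the order was the other way. Calb1 had 2 or more UMIs in 68.7% of members, 58.0% of Nr2f2-0 myosin-gene cells and 56.0% of other Sst cells. These shares were not tested.

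The 12 cells that met the rule but for 2 or more Cartpt UMIs had 170 CPM of Pld5, 656 CPM of Lypd6 and 25.3 CPM of Pdyn, beside 116, 592 and 110 CPM in members with a 4-gene sum of 3 or more. Lypd6 stood at 241 CPM in Nr2f2-positive cells with a 4-gene sum of 0. These groups were formed after seeing the data and were not tested.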
